A study of Mus musculus with 56 samples.

Results

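Regulatory T cells (Tregs) sorted from the spleen were followed over 16 weeks on the diet labelled HFD, by RNA-seq, in C57BL/6 mice carrying the vTreg53 T cell receptor transgene. The course consists of 15 of the 56 libraries of the series: 3 from mice at week 0, before the diet, and 3 each from mice after 2, 4, 8 and 16 weeks on HFD. All mice were 12 weeks old when feeding began, so time on HFD and age advance together and cannot be told apart within these 15 libraries. All groups carry the transgene, and the cells were those bearing its clonotype, so the libraries describe one receptor specificity in place of a mixed Treg repertoire. The other spleen libraries used here are from vTreg53 mice kept on the diet labelled NCD for the same times (3, 2, 3 and 3 libraries at weeks 2, 4, 8 and 16), and 14 libraries from visceral adipose tissue (VAT) Tregs at week 0 and on HFD serve for 1 comparison between tissues. Each library was made from 1000 cells sorted in 2 rounds. The libraries were assigned to spleen or VAT by their titles, since the tissue label of the spleen libraries names VAT. Whether the replicates are separate mice is not stated, so the p-values measure only the spread between libraries.

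Tregs are a branch of the CD4 T cell lineage, held in their identity by the transcription factor Foxp3, that keeps other immune cells in check. In the spleen most are resting cells that recirculate through lymphoid organs under the control of factors such as Lef1 and receptors such as S1pr1 and Ccr7. A smaller share are effector cells, which carry receptors such as PD-1, TIGIT and CCR8, express Batf, and can move into tissues such as fat, where Tregs influence inflammation and metabolism. Signals through the interleukin-2 receptor, relayed by the kinase Jak3, sustain them throughout.

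The spleen libraries of the course held between 3248686 and 4976853 counts (median 4149457), with between 17004 and 21521 genes at a count above 0. The lowest number of genes was in HFD week 2 replicate 3, which stood apart: on the first principal component of log2 CPM (17.6% of the variance) it scored -89.1 while the other libraries lay between -17.9 and 42.6. Its correlation with its own group was 0.924, the lowest of the 15. Without it the trend was called for 407 genes and any difference for 271, and further values without it stand beside the week 2 results. Levels are given as CPM, counts scaled to the size of the library with TMM factors, and a gene with no count could be present at up to 0.617 to 0.909 CPM, the value of 3 counts, depending on the library. Foxp3 was at 769 to 918 CPM in the 15 libraries, Cd4 at 563 to 734 CPM, Cd3e at 353 to 445 CPM and Ikzf2 at 1030 to 1980 CPM. Markers of Tregs resident in fat were mixed. Pparg was at 0 to 4.6 CPM, Cd36 at 0 to 0.684 CPM, Areg at 1.16 to 17.6 CPM and Il1rl1, the interleukin-33 receptor, at 23.5 to 72.8 CPM, while Klrg1 was at 141 to 432 CPM and the chemokine receptor gene Ccr2 at 111 to 429 CPM.

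Spleen Tregs changed between week 0 and the later weeks, but few changes separated one HFD week from the next. Of 14686 genes tested with edgeR's quasi-likelihood test, 398 (2.71%) had a linear trend over the 5 time points at an adjusted p under 0.05, of which 290 rose (1.97%) and 108 fell (0.735%). The joint test for any difference among the time points called 210 genes (1.43%). Among these 210 genes, the mean was lowest at week 0 for 155 and highest at week 4 for 114, at week 16 for 42, at week 8 for 29, at week 0 for 21 and at week 2 for 4. All trends below are given as the fitted log2 change over the 4 steps from week 0 to week 16, with its standard error (SE).

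Set against week 0, 1 gene was called at week 2 (0.00681%), 215 at week 4 (1.46%), 175 at week 8 (1.19%) and 211 at week 16 (1.44%). At week 4 the called genes were nearly all higher, 209 (1.42%) against 6 lower (0.0409%). By week 8 there were 133 higher (0.906%) and 42 lower (0.286%), and by week 16 149 higher (1.01%) and 62 lower (0.422%). Between successive weeks on HFD, 38 genes (0.259%) differed from week 2 to week 4, of which 37 (0.252%) were higher at week 4. From week 4 to week 8 edgeR called 0 genes, with 790 at an unadjusted p under 0.05, and DESeq2 called 1 (Jak3). From week 8 to week 16 edgeR called 0 genes, with 560 at an unadjusted p under 0.05, and DESeq2 also called 0. If no gene changed, 734.3 of the 14686 genes would be expected under that unadjusted p.

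**Figure D1:**
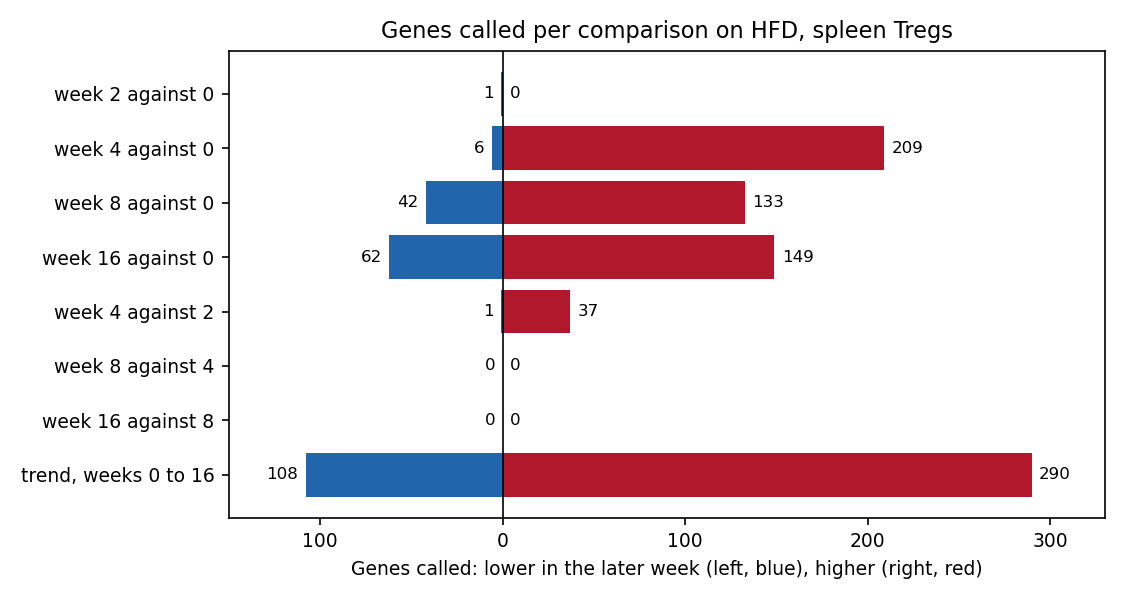
Number of genes (horizontal axis) called lower in the later week (left, blue) or higher (right, red) in spleen Tregs, by edgeR with an adjusted p under 0.05 and 3 libraries per time point, for each HFD week against week 0, between successive HFD weeks and for the trend. The week 4 bar holds 209 higher and 6 lower genes, the week 16 bar 149 and 62, and the comparisons of week 8 with week 4 and week 16 with week 8 are empty.

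These counts rested on week 0 and on single libraries. Without week 0, the trend over weeks 2 to 16 was called for 7 genes and any difference for 16. Leaving out HFD week 16 replicate 1 lowered the trend count from 398 to 106, while week 0 replicate 1 lowered it to 121, week 0 replicate 2 to 152, week 8 replicate 2 to 256 and week 8 replicate 1 to 257. For any difference, the count without week 0 replicate 2 was 79, without week 0 replicate 1 96, without week 4 replicate 2 108, without week 4 replicate 1 139 and without week 8 replicate 3 332. At week 4 against week 0 it was 63 without week 0 replicate 1, 99 without week 0 replicate 2, 125 without week 4 replicate 3 and 130 without week 4 replicate 2. At week 8 it was 6 without week 0 replicate 1, 8 without either week 8 replicate 1 or replicate 2, 30 without week 0 replicate 2 and 425 without week 8 replicate 3. At week 16 it was 7 without week 0 replicate 2, 11 without week 16 replicate 1, 29 without week 0 replicate 1 and 100 without week 16 replicate 2. Between weeks 2 and 4 it was 0 without week 2 replicate 1 or replicate 2, 1 (Acbd6) without week 4 replicate 2, 21 without week 4 replicate 1, 22 without week 4 replicate 3 and 67 without week 2 replicate 3. Of 58 genes with a trend that are examined here singly, 16 kept their call without each of the 15 libraries, 21 lost it without 1 to 3 of them and 21 without 4 or more.

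Jak3, the kinase bound to the common gamma chain of the interleukin-2 and interleukin-7 receptors, was higher at weeks 8 and 16 than at week 0. The gene lies on the plus strand at chr8:71676296-71690575 (GENCODE M21, GRCm38, the assembly called mm10). It was at 296, 306 and 357 CPM at week 0, 335, 348 and 312 at week 2, 319, 315 and 334 at week 4, 476, 460 and 461 at week 8, and 519, 502 and 455 at week 16. All 6 libraries of weeks 8 and 16 were above all 9 earlier ones, with no overlap. The trend was 0.693 ± 0.094 (SE, edgeR adjusted p = 2.17e-04), and it held in all 25 alternative analyses run for it, with adjusted p up to 0.00941. The difference from week 0 was 0.54 on the log2 scale at week 8 (edgeR adjusted p = 0.0114) and 0.62 at week 16 (adjusted p = 0.00571, and 0.0576 without week 0 replicate 2). The week 8 call was lost without 4 of the 6 libraries compared, with adjusted p up to 0.113 without week 0 replicate 1. The step from week 4 to week 8 was 0.53 ± 0.10 (edgeR adjusted p = 0.344, DESeq2 adjusted p = 0.0213). On NCD, Jak3 was at 317 to 356 CPM at week 16.

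A group of genes with low levels at week 0 rose late. Tspoap1, which encodes a binding partner of the mitochondrial protein TSPO, was at 13, 13.1 and 8.43 CPM at week 0 and 10.8, 21.2 and 25 CPM at week 4. It reached 26.7, 57.6 and 36.1 CPM at week 8 and 85.8, 67.8 and 57 CPM at week 16, so week 16 lay above every week 0, 2 and 4 library. Its trend was 2.54 ± 0.36 (edgeR adjusted p = 6.05e-04). Atp6v0d2, a subunit of the vacuolar proton pump, was at 7.87 to 26.3 CPM in the 9 libraries up to week 4 and at 30.6 to 53.3 CPM in the 6 later ones, without overlap (trend 1.86 ± 0.31, edgeR adjusted p = 0.00213). Abhd4, a lipid hydrolase, was at 9.18 to 34.3 CPM up to week 4 and at 40.3 to 68.5 CPM at weeks 8 and 16, again without overlap (trend 1.67 ± 0.29, edgeR adjusted p = 0.00333). These 3 genes, like Jak3, also kept a trend without week 0 (edgeR adjusted p of 0.041 for Tspoap1 and 0.0306 for Atp6v0d2 and Abhd4). The remaining genes called without week 0 were Ifit1, described below, and Gpcpd1 and Gm4956, named after their values were seen. Ncmap, a small membrane protein first described in myelin, had a trend of 1.24 ± 0.18 (edgeR adjusted p = 4.46e-04) and was at 54.6 to 64.5 CPM at week 0 against 122 to 136 CPM at week 16.

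A second group had risen by week 4. Socs1, the feedback inhibitor of Jak kinases, was at 23.5, 25.8 and 35.1 CPM at week 0, 31.3, 47 and 45.9 at week 2, 78.4, 55.7 and 59.4 at week 4, 67.9, 76.5 and 53.5 at week 8, and 71.9, 47.8 and 72.7 at week 16. Every library from week 4 on was above every earlier one. Its trend was 1.21 ± 0.20 (edgeR adjusted p = 0.00213), and it was already 1.19 higher at week 4 than at week 0 (adjusted p = 0.00344). Tnfaip3, which encodes A20, an inhibitor of NF-kB signalling, went from 64.3, 102 and 70.6 CPM at week 0 to 212, 141 and 172 CPM at week 4 and 206, 155 and 176 CPM at week 16 (trend 1.12 ± 0.21, edgeR adjusted p = 0.00517). Its difference at week 4 was 1.14 (edgeR adjusted p = 0.00744, and 0.0843 and 0.0537 without week 0 replicate 1 and week 4 replicate 1). Nsmf rose from 4.34, 10.3 and 7.98 CPM at week 0 to 18.5, 19.4 and 19.9 CPM at week 2 and 35.3, 32.6 and 43.2 CPM at week 4. At week 16 it was at 40, 24.8 and 32.4 CPM (trend 2.24 ± 0.28, edgeR adjusted p = 1e-04). The transporter gene Slc9a7 (trend 1.71 ± 0.29), Fam98c (1.65 ± 0.29) and Smim10l1 (1.16 ± 0.17) had trends of the same direction (edgeR adjusted p up to 0.00333). Each had no overlap between week 0 and week 16, which was a condition for naming a gene by its trend.

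**Figure D2:**
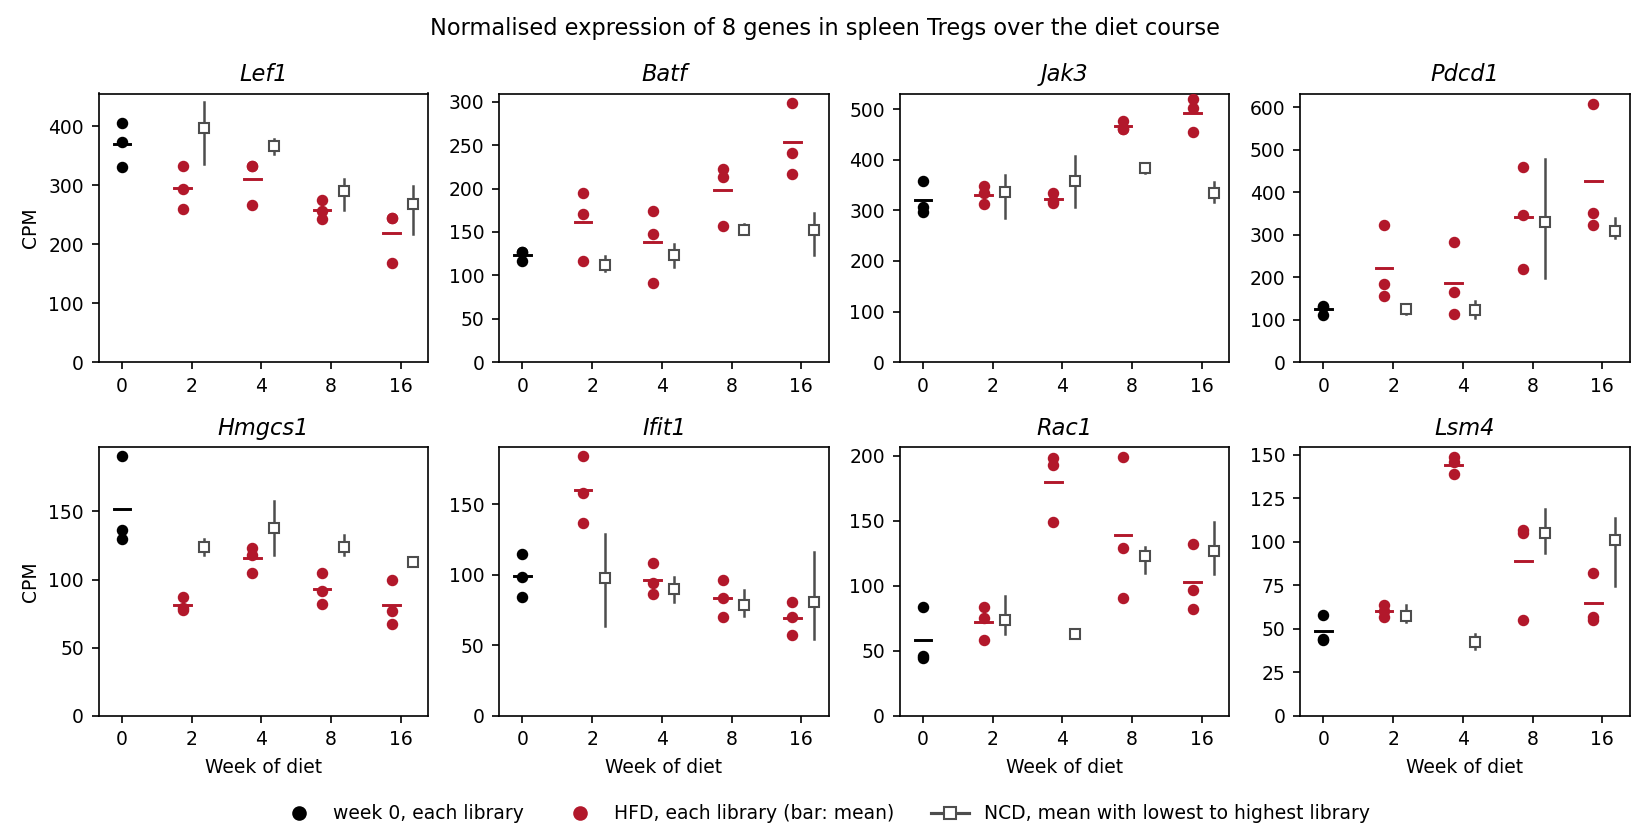
CPM (vertical axis, each panel with its own scale) of 8 genes by time on diet in weeks (0, 2, 4, 8, 16) in spleen Tregs; points are libraries, bars the means of 3 libraries, and grey squares with lines the mean and the lowest to highest library on NCD. Jak3, Batf and Pdcd1 have their highest mean at week 16, Lef1 has its lowest there, Hmgcs1 and Ifit1 leave their week 0 level at week 2, and Rac1 and Lsm4 have their highest mean at week 4 with HFD week 8 replicate 3 low.

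Of the genes that passed the test, those of effector Tregs rose and those of resting T cells fell. In the list of 22 effector Treg genes, 4 rose, 0 fell, and 20 had a positive slope; the list's median trend was 0.746 against -0.00653 over all genes, of which 1.97% rose and 0.735% fell. In the list of 16 resting lymphoid T cell genes, 3 fell, 0 rose, and 1 had a positive slope, with a median of -0.687. Of 20 coinhibitory and costimulatory receptors, 4 rose and 0 fell (median 0.211). On NCD over the same time, set beside the same week 0, the medians were 0.469, -0.5 and 0.121.

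Batf, a transcription factor of the AP-1 family required by effector Tregs, was the effector gene whose trend kept its call without each library in turn. It was at 127, 116 and 127 CPM at week 0, 171, 195 and 117 at week 2, 148, 90.9 and 174 at week 4, 213, 223 and 157 at week 8, and 299, 241 and 217 at week 16. Weeks 2 and 4 overlapped with week 0, while week 16 did not (trend 0.946 ± 0.17, edgeR adjusted p = 0.00454). The chemokine receptor genes Ccr8 (36.5, 28.4 and 37.1 CPM at week 0 and 140, 54.2 and 69.7 at week 16) and Ccr6 (43.1, 27.7 and 60.8 against 94.8, 133 and 76.1) rose by 1.36 ± 0.32 and 1.33 ± 0.31 (edgeR adjusted p = 0.0195 and 0.0184). Icos, a costimulatory receptor, was 0.675 higher at week 16 than at week 0 (edgeR adjusted p = 0.0399, lost without 5 of the 6 libraries compared, with adjusted p up to 0.263 without week 16 replicate 1), though its trend missed the threshold (adjusted p = 0.0601). Other effector genes were higher on average at week 16 without passing the test: Itgae, the CD103 integrin chain, named after its values were seen, had a trend of 1.18 (edgeR adjusted p = 0.131) and Tbx21, the Th1 factor T-bet, 2.31 (adjusted p = 0.0549). Klrg1, a marker of terminal differentiation, had a trend of 0.185 (adjusted p = 0.921).

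Among the receptors that dampen or tune T cell activation, Pdcd1, which encodes PD-1, was at 112, 130 and 132 CPM at week 0, 184, 323 and 157 at week 2, 165, 114 and 284 at week 4, 346, 459 and 220 at week 8, and 607, 350 and 322 at week 16. Weeks 8 and 16 lay above all week 0 libraries, and replicates within weeks 2, 4 and 8 spread widely. The Pdcd1 trend was 1.67 ± 0.33 (edgeR adjusted p = 0.0116). Lag3, a receptor for MHC class II, went from 74.4, 68.4 and 74.1 CPM at week 0 to 291, 152 and 167 CPM at week 16 (trend 1.38 ± 0.31, edgeR adjusted p = 0.0188). Tigit, named after its values were seen, went from 173, 130 and 177 to 680, 297 and 294 CPM (trend 1.32 ± 0.32, adjusted p = 0.0338). Tnfrsf1b, the TNF receptor TNFR2 that supports Treg expansion, went from 316, 346 and 412 to 671, 569 and 487 CPM (trend 0.783 ± 0.15, edgeR adjusted p = 0.00717) and kept its call without each library. The other 3 receptors were highest in week 16 replicate 1, and without that library the adjusted p of their trends was 0.0569 for Pdcd1, 0.1 for Lag3, 0.181 for Tigit and, of the chemokine receptors, 0.148 for Ccr8 and 0.0548 for Ccr6.

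On the resting side, Lef1, a transcription factor of naive and central T cells, was at 331, 406 and 373 CPM at week 0, 294, 260 and 332 at week 2, 333, 333 and 267 at week 4, 256, 243 and 275 at week 8, and 168, 244 and 245 at week 16. Weeks 8 and 16 were below every week 0 library (trend -0.685 ± 0.13, edgeR adjusted p = 0.00506), and the call held without each library, with adjusted p up to 0.0313. Il6ra, the interleukin-6 receptor chain, went from 378, 361 and 361 CPM at week 0 to 115, 268 and 246 CPM at week 16 (trend -0.803 ± 0.20, edgeR adjusted p = 0.0276, and 0.0669 without week 16 replicate 1). S1pr1, the receptor that lets T cells leave lymphoid organs, had a trend of -0.529 ± 0.15 (edgeR adjusted p = 0.0457, and 0.231 without that library) and was named after its values were seen. On NCD the S1pr1 trend was -0.567 (edgeR adjusted p = 0.0336). The lymph node homing receptor gene Ccr7 had a trend of -0.663 that did not pass (edgeR adjusted p = 0.23), and Tcf7, the partner of Lef1, had -0.242 (adjusted p = 0.564).

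The counts for these lists depended on a few libraries. Without HFD week 16 replicate 1, 1 effector gene, 1 resting gene and 1 coinhibitory gene were called, and without week 0 replicate 1 the counts were also 1, 1 and 1. Without week 0 replicate 2 they were 1, 1 and 2. The resting count was 1 without week 8 replicate 2 and 7 without week 16 replicate 3. Without week 0 none of the 3 lists had a called gene, and without week 16 the counts were 0, 0 and 1.

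Some genes of the B cell list rose over the same weeks. Of 13 tested, 3 rose (Ighm, Cd74 and H2-Aa, with values seen before they were named) and 0 fell, against 1.97% and 0.735% of all genes. In this list 11 had a positive slope, and the median was 1.12 on HFD and 0.862 on NCD. On HFD 1 was called without either week 0 replicate 1 or HFD week 16 replicate 1. Ighm, the immunoglobulin M heavy chain, was at 1520, 1670 and 1700 CPM at week 0 and 3570, 2290 and 2250 CPM at week 16 (trend 0.896 ± 0.19, edgeR adjusted p = 0.0154). The highest value was 4600 CPM in HFD week 8 replicate 2, where Igkc, the kappa light chain, was at 814 CPM. Cd74, the MHC class II invariant chain, went from 22.6, 21.8 and 32.1 CPM to 150, 73.8 and 84.9 CPM (trend 2.01 ± 0.40, edgeR adjusted p = 0.00975). On NCD the Cd74 trend was 1.61 (edgeR adjusted p = 0.0343). The B cell receptor genes Cd79a and Cd79b had slopes below 0 that did not pass, -0.549 and -0.236 (edgeR adjusted p = 0.797 and 0.764), with means of 3.55 and 21.1 CPM at week 0 and 2.06 and 16.6 CPM at week 16. The summed level of the B cell list was 1610 to 1800 CPM at week 0, 2580 to 5650 CPM at week 8 and 2450 to 4060 CPM at week 16. The defining B cell genes Pax5 and Ms4a1 were at 0 in 14 and 10 of the 15 libraries. The granulocyte genes S100a8 and S100a9 were at 0 in all 15. The part of B cell RNA in the effector, coinhibitory and resting results was not tested, and in bulk libraries such as these a change in the share of cells of a type and a change in RNA per cell cannot be told apart.

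**Figure D3:**
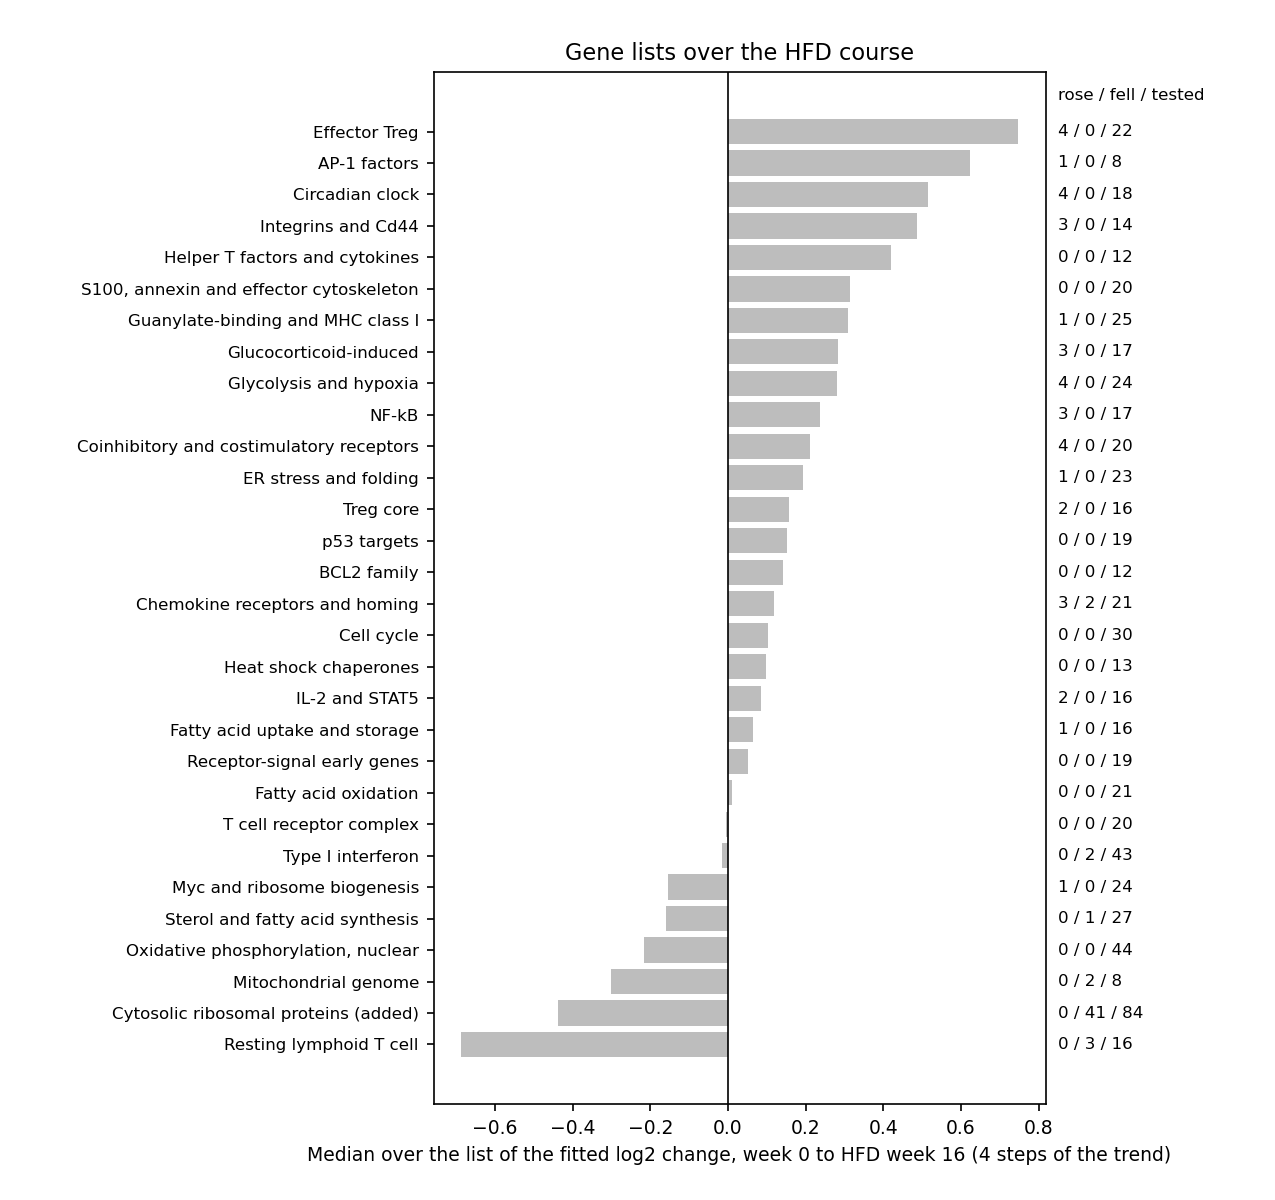
Median trend over 4 steps (log2, bars) of gene lists over the HFD course in spleen Tregs, with the numbers of genes that rose, fell and were tested written beside each bar. The lists of other cell types are not drawn, among them the B cell list with a median of 1.12. Over all genes 1.97% rose and 0.735% fell. The effector list has a median of 0.746 with 4 of 22 genes risen, the resting list -0.687 with 3 of 16 fallen, and the ribosomal protein list -0.438 with 41 of 84 fallen, against a median of -0.00653 over all genes.

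Among receptors and molecules for homing and adhesion, 21 chemokine receptor and homing genes held 3 that rose (Ccr6, Ccr8 and Cxcr4) and 2 that fell (Ccr9 and S1pr1). Over all genes 1.97% rose and 0.735% fell. None of the 21 was called without week 0 replicate 1, week 0 replicate 2 or HFD week 16 replicate 1. Ccr9, the receptor for gut and thymus homing, was at 31.8, 46.2 and 28.7 CPM at week 0 and 9.86, 10.1 and 17.9 CPM at week 16 without overlap (trend -1.59 ± 0.38, edgeR adjusted p = 0.0221). Of 14 integrin genes, 3 rose (Itgb7, Itgb1 and Itgav), against 1.97% of all genes, and 3 of the list also rose on NCD. On HFD 0 were called without week 0 replicate 2 and 1 without week 0 replicate 1, week 16 replicate 1 or week 16 replicate 3. The rise of Itgb7, Itgb1 and Itgav came early, by week 4.

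A further set of genes stood high at week 4, and its average was lower again at week 16. Of the 209 genes higher at week 4 than at week 0, Lsm4, part of the Sm-like protein ring that acts in RNA decay and splicing, was at 43.7, 44.3 and 57.7 CPM at week 0, 60.3, 56.6 and 63.5 at week 2, 149, 146 and 139 at week 4, 107, 105 and 55.2 at week 8, and 55.1, 57 and 82.4 at week 16. The 3 week 4 libraries were the highest of the 15, and 1 week 8 library was back in the week 0 range. The difference was 1.57 ± 0.21 from week 0 (edgeR adjusted p = 4.01e-04) and 1.26 ± 0.20 from week 2 (adjusted p = 0.00693), while the trend was 0.557 (adjusted p = 0.111).

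Rac1, the GTPase that remodels actin, was at 46.3, 44.3 and 83.9 CPM at week 0, 149, 198 and 193 at week 4, 199, 129 and 90.3 at week 8 and 81.8, 96.8 and 132 at week 16. It was 1.62 ± 0.25 higher at week 4 than at week 0 (edgeR adjusted p = 0.00102). Tysnd1, a protease of peroxisomes, was at 7.53, 9.84 and 10 CPM at week 0 and 47.2, 56.4 and 41.9 CPM at week 4 (2.40 ± 0.34, edgeR adjusted p = 4.39e-04). Acbd6, an acyl-CoA binding protein, was at 11.9, 14.1 and 13.9 CPM at week 0 and 11.9, 12.4 and 11.3 CPM at week 2. At week 4 it stood at 55.2, 57.9 and 49.9 CPM, 2.19 above week 2 (edgeR adjusted p = 0.00465), and at week 16 it was at 19.7, 15.2 and 31.8 CPM. Each of these 4 genes was at its lowest week 8 value in HFD week 8 replicate 3.

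Other genes of this set act in adhesion, signalling and protein folding. Itgb7, the beta chain of the gut homing integrin, was at 327, 421 and 557 CPM at week 0, 632, 626 and 1380 at week 2, 2190, 2160 and 2660 at week 4, 2810, 2040 and 796 at week 8, and 1160, 989 and 1640 at week 16. All later libraries were above week 0, and the difference at week 4 was 2.42 ± 0.43 (edgeR adjusted p = 0.00527, and 0.0565 without week 0 replicate 1). Itgb1 was 1.62 higher at week 4 (edgeR adjusted p = 0.00842, and 0.0843, 0.0692 and 0.0522 without week 0 replicate 1, week 0 replicate 2 and week 4 replicate 3) and Itgav, the chain that pairs with beta subunits to activate TGF-beta, 1.10 higher (adjusted p = 0.00903, and 0.0961 and 0.0677 without week 0 replicate 2 and week 4 replicate 3). Arhgef1, an exchange factor for small GTPases in lymphocytes, was at 852, 1010 and 872 CPM at week 4 against 398, 452 and 448 at week 0, and was back at 391, 394 and 536 CPM at week 16 (1.08 higher at week 4, edgeR adjusted p = 0.00133). Of 19 early genes of receptor signalling tested, Ier2 (2.16, edgeR adjusted p = 0.00363) and the phosphatase gene Dusp2 (2.52, adjusted p = 0.00955) were higher at week 4, where 1.42% of all genes were. The Dusp2 call was lost without week 0 replicate 1 or replicate 2 (adjusted p up to 0.0898). Dnajb11, a chaperone of the endoplasmic reticulum, was 1.72 higher (edgeR adjusted p = 0.00445). Tnf was among the 6 genes lower at week 4 (-0.822, edgeR adjusted p = 0.0271, lost without 5 of the 6 libraries compared, with adjusted p up to 0.164 without week 4 replicate 2) and was also lower at week 16 (-0.838, adjusted p = 0.0343).

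As a set chosen from these libraries, and so given without a test, the 209 genes averaged -1.01, -0.739 and -0.477 at week 0 on a log2 scale centred per gene, and 0.608, 0.677 and 0.7 at week 4. At week 8 they averaged 0.71, 0.423 and -0.235, with replicate 3 apart from the other two, and at week 16 -0.00838, -0.0869 and 0.259. On NCD they averaged -0.603 and -0.889 at week 4, 0.209 to 0.393 at week 8 and 0.103 to 0.419 at week 16. The HFD and NCD libraries of week 4 do not overlap, but the genes were picked for high values in those HFD libraries. Such a choice can by itself widen that gap and lower the average at later weeks. The difference between diets at week 4 was not tested. The 203 genes with a rising trend outside that set averaged -0.802 to -0.626 at week 0 and 0.475 to 0.909 at week 16, and 0.0136 to 0.365 at week 16 on NCD. The 67 falling genes that do not encode ribosomal proteins averaged 0.351 to 0.402 at week 0 and -0.733, -0.42 and -0.255 at week 16, with replicate 1 lowest. On NCD these genes averaged -0.312, -0.0267 and 0.0543 at week 16. The 203 and the 67 genes were picked for their slope on HFD. That choice can by itself widen their change by HFD week 16 and the gap to NCD, which was not tested.

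**Figure D4:**
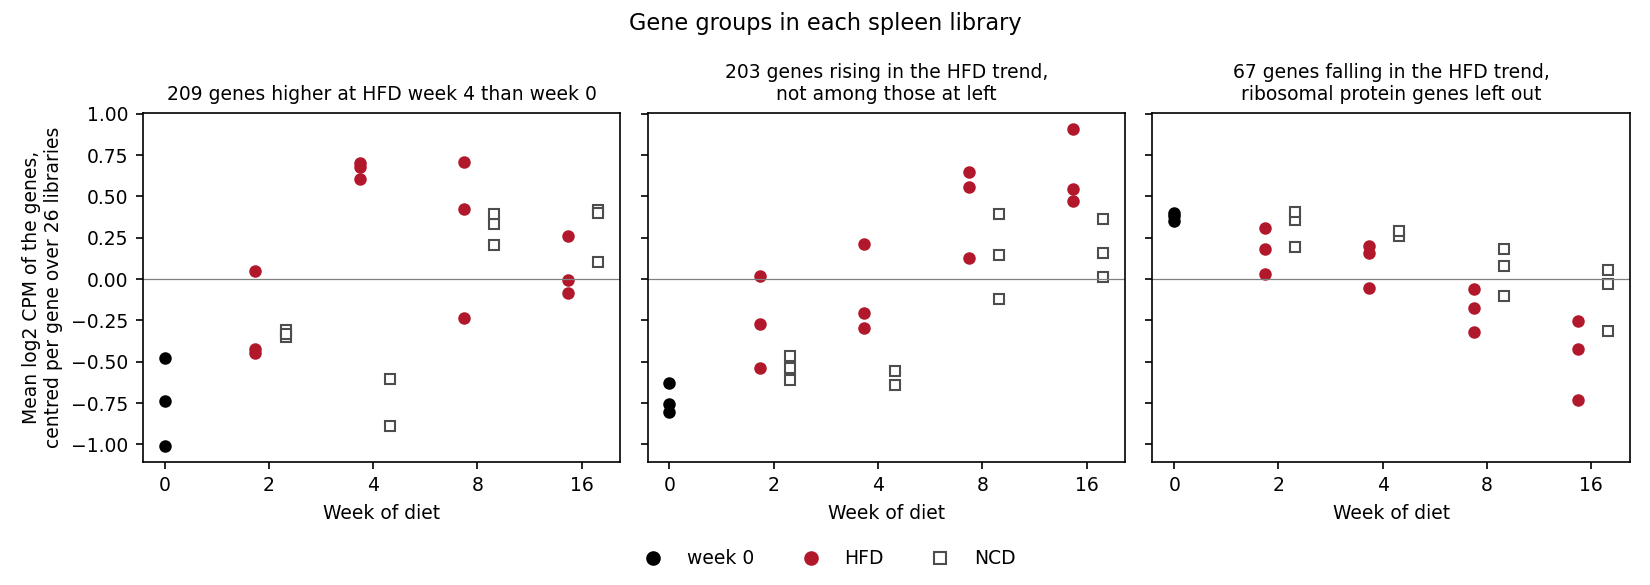
Mean centred log2 CPM (vertical axis) of 3 gene sets chosen from these data, for each spleen library by weeks on diet (0, 2, 4, 8, 16), HFD and NCD in separate colours. Each gene was centred on its mean over the 15 libraries of the HFD course, not over the 26 that the axis label names. The left panel's 209 genes, picked for high values at HFD week 4, lie at 0.608 to 0.7 there. HFD week 8 replicate 1 is at 0.71 and replicate 3 at -0.235. The middle panel's 203 genes and the right panel's 67 genes, picked for their slope on HFD, are on average furthest from week 0 at HFD week 16.

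At week 2 the 1 gene called against week 0 was Hmgcs1, the enzyme that forms HMG-CoA at the start of cholesterol synthesis. It was at 136, 191 and 130 CPM at week 0, 77.9, 79.1 and 87.4 at week 2, 123, 118 and 105 at week 4, 91.7, 81.8 and 105 at week 8, and 67.1, 100 and 76.7 at week 16. All HFD libraries were below all week 0 libraries, and the week 2 libraries were below those of week 4. The difference at week 2 was -0.90 ± 0.15 (edgeR adjusted p = 0.0345); it missed the threshold in 6 of 11 alternatives, among them without each week 2 library and without week 0 replicate 2, with adjusted p up to 0.404. Its trend was -0.648 ± 0.14 (edgeR adjusted p = 0.00991, and 0.0635 without HFD week 16 replicate 1 and 0.0705 without week 0 replicate 2). On NCD it was at 118 to 130 CPM at week 2, above all 3 HFD libraries of that week. Fdft1, squalene synthase, had values of 42, 54.1 and 49.4 CPM at week 0 and 29.9, 27.4 and 16.5 CPM at week 2 (-0.98, adjusted p = 0.186) and was named after its values were seen. Of the 27 sterol and fatty acid synthesis genes tested, 2 had a positive difference at week 2, with a median of -0.317 against 0.00608 over all genes, and 1 was called. Cyp51, a sterol demethylase, was lower at week 16 (-0.669, edgeR adjusted p = 0.0366), a call lost without week 0 replicate 1 or 2 or week 16 replicate 1 or 3 (adjusted p up to 0.179). Without HFD week 2 replicate 3, the library that stood apart, the week 2 difference of Hmgcs1 was -0.948 (edgeR adjusted p = 0.122) and the median of the list was -0.263, with 2 of 27 positive.

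The 250 bases before the Hmgcs1 start are shown because the genes of this pathway share control by the sterol-responsive SREBP factors. They lie at chr13:119690101-119690350 on the plus strand (RefSeq, GRCm38.p6), upstream of the first exon, with capitals marking the match to the sterol element CACCCCAC, searched on both strands, whose first base is at -136 from the start site.
Hmgcs1: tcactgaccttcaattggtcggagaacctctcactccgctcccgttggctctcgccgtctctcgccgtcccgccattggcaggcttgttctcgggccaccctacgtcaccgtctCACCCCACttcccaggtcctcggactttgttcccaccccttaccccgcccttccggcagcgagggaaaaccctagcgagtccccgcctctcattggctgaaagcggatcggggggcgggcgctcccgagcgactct
The same letters are in 846 of 32851 promoters of this length (2.58%), and in 1 of the 19 promoters found for genes of the sterol list.

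Of the interferon-induced genes 2 fell over the course, and one of them, Ifit1, stood highest at week 2. Ifit1, an antiviral RNA-binding protein, was at 98.1, 83.9 and 115 CPM at week 0, 137, 184 and 158 at week 2, 94.3, 86.3 and 108 at week 4, 83.7, 96.3 and 69.9 at week 8, and 81, 70.1 and 57 at week 16. The 3 week 2 libraries were the highest and the 3 week 16 libraries lay below all libraries of weeks 0, 2 and 4. It differed among the time points (edgeR adjusted p = 0.0205), and its trend was -0.785 ± 0.20 (adjusted p = 0.0323, and 0.0606 without HFD week 16 replicate 1). Oas2, an oligoadenylate synthetase, had no peak at week 2 in all replicates, with 26.2, 16.8 and 34.6 CPM against 19.1, 17.3 and 25.1 at week 0, and was at 9.86, 9.19 and 12.7 CPM at week 16 (trend -1.53 ± 0.39, edgeR adjusted p = 0.0313, and 0.119 without week 16 replicate 1). These were the 2 falling genes of 43 type I interferon genes tested, where 0.735% of all genes fell. Of the 43, 0 rose, against 1.97% of all genes. The median trend of the 43 was -0.015, with 20 slopes positive. On NCD it was -0.126, with 9 positive, and 0 rose or fell. At week 2, 35 of the 43 had a positive difference with a median of 0.216, and 0 were called; without HFD week 2 replicate 3 the median was 0.201, with 37 positive. Ifit3 was at 39.2, 67.1 and 52 CPM at week 2 and 22.6, 22 and 38.3 CPM at week 0 (trend -0.854, edgeR adjusted p = 0.307), and reads from it may be shared with its near copy Ifit3b.

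The Ifit1 promoter is shown because interferon-induced genes are turned on through a short repeated element. It lies at chr19:34640639-34640888 on the plus strand (RefSeq, GRCm38.p6), upstream of the first exon. Capitals mark the 2 matches to a pair of GAAA separated by any 2 bases, searched on both strands and both found here on the minus strand, with first bases at -104 and -85.
Ifit1: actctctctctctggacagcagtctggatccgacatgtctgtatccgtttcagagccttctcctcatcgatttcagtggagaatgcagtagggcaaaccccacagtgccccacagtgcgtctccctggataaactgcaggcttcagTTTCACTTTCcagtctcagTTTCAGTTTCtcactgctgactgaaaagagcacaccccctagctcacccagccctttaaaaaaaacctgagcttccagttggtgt
The element was in 978 of 32851 promoters (2.98%) and in 17 of the 33 promoters found for genes of the interferon list.

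Cell cycle genes were mostly higher at week 2 on average, without passing a test. Of 30 tested, 28 had a positive difference at week 2, with a median of 0.882, and 0 were called at week 2 or by the trend. Without HFD week 2 replicate 3 the median was 0.863, with 27 positive. Mki67, the proliferation marker Ki-67, was at 42.8, 43.4 and 40.8 CPM at week 0, 112, 71.6 and 101 at week 2, 36.9, 33 and 105 at week 4, 57.4, 66.8 and 47.3 at week 8 and 111, 45.5 and 47.6 at week 16. Week 2 lay above week 0, but single libraries at weeks 4 and 16 reached the same level (edgeR adjusted p for any difference = 0.845).

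Ribosomal protein genes made up 41 of the 108 falling genes. Of 84 cytosolic ribosomal protein genes, a list added after values were seen, these 41 fell, against 0.735% of all genes. In the list 0 rose, and 2 had a positive slope (median -0.438). Rps3 went from 2820, 3010 and 2900 CPM at week 0 to 1980, 2220 and 2340 CPM at week 16, without overlap (trend -0.379 ± 0.075, edgeR adjusted p = 0.00717). It kept its call without each library. The list, 90 genes with those not tested, summed to 36100 to 37000 CPM at week 0 and 22900 to 29400 CPM at week 16. A share of counts was taken over all symbols beginning with Rpl or Rps and a digit, a set not identical to the list. This share was 3.32 to 3.41% at week 0, 2.76 to 2.87% at week 2, 3.28, 3.19 and 2.51% at week 4, 2.3, 2.38 and 2.85% at week 8, and 2.15, 2.58 and 2.76% at week 16. The path was not steady: 2 week 4 libraries were near week 0, and week 2 was below. On NCD the share at week 16 was 2.89 to 3.11%, and 0 of the 84 genes fell and 1 rose with a median of -0.213. The HFD count was 3 without week 16 replicate 1, 12 without week 0 replicate 1, 15 without week 0 replicate 2, 23 without week 0 replicate 3, 25 without either week 8 replicate 1 or replicate 2, 27 without week 16 replicate 2, 57 without week 8 replicate 3, 22 without week 16 and 0 without week 0.

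All genes of the mitochondrial genome that were tested had a negative slope, both on HFD (median -0.302) and on NCD (median -0.161). Of these 8 genes, 2 fell and 0 rose on HFD, against 0.735% of all genes that fell (0 and 0 without week 0 replicate 1 or HFD week 16 replicate 1). On NCD 0 fell and 0 rose. The complex I gene mt-Nd2 was at 360, 303 and 299 CPM at week 0 and 196, 216 and 235 CPM at week 16 (trend -0.599 ± 0.13, edgeR adjusted p = 0.0112), and mt-Nd1 had a trend of -0.355 ± 0.099 (adjusted p = 0.0474). Of 44 nuclear genes of oxidative phosphorylation, 2 had a positive slope and 0 passed the test (median -0.216).

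**Figure D5:**
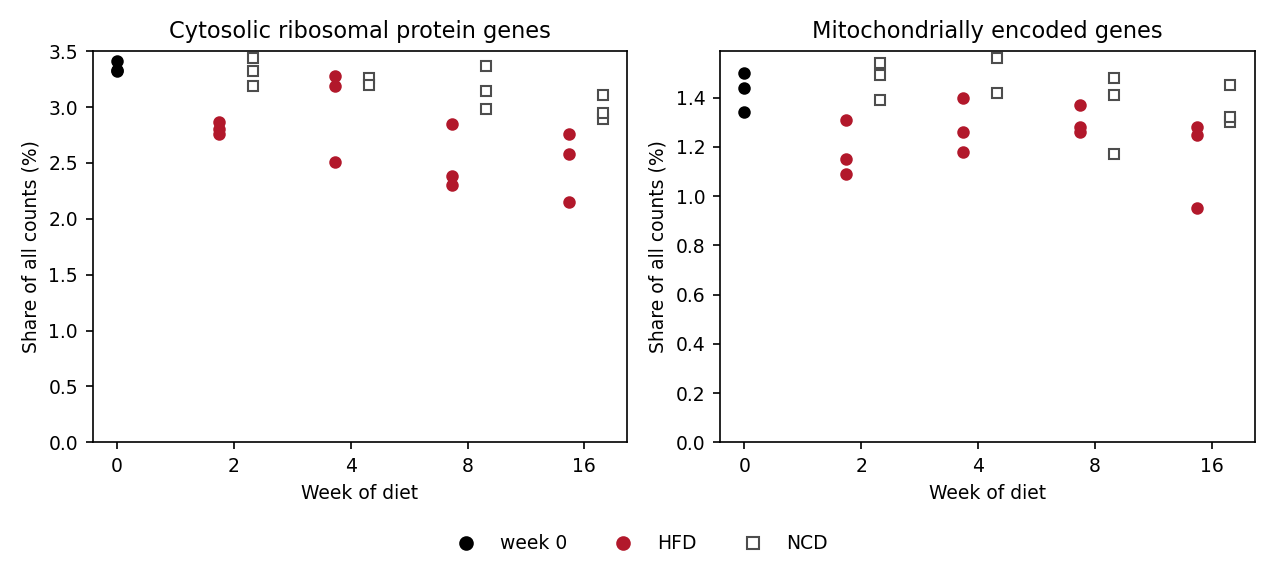
Share of all counts (percent, vertical axis) in each spleen library by weeks on diet, HFD and NCD in separate colours. The panel titled cytosolic ribosomal protein genes counts all symbols beginning with Rpl or Rps and a digit, and the other the genes of the mitochondrial genome. The ribosomal share is 3.32 to 3.41% in the week 0 libraries and lowest, at 2.15%, in HFD week 16 replicate 1.

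Several genes of glucose use and 1 of fat storage had a rising trend. Of 24 glycolysis and hypoxia genes, 4 rose and 0 fell (median 0.28), against 1.97% of all genes that rose, with 0 called without week 0 replicate 1 or HFD week 16 replicate 1 and 1 without week 0 replicate 2. Aldoa, aldolase, went from 424, 487 and 456 CPM at week 0 to 642, 572 and 539 CPM at week 16 (trend 0.45 ± 0.094, edgeR adjusted p = 0.00914). Slc16a3, the lactate exporter, went from 6.66, 8.44 and 8.43 to 32.2, 26.9 and 21.2 CPM (trend 1.54 ± 0.36, adjusted p = 0.0158). Neither gene's week 16 libraries overlapped with week 0. The remaining risen members were Tpi1, triosephosphate isomerase (0.762, adjusted p = 0.0203), and Hif1a, the hypoxia factor (0.935, adjusted p = 0.0468), the latter named after its values were seen. Dgat1, which joins fatty acids to make triglyceride, was at 33.3, 36.3 and 38.7 CPM at week 0 and 117, 62.5 and 64.6 CPM at week 16 (trend 0.966 ± 0.21, edgeR adjusted p = 0.0118, and 0.115 without week 16 replicate 1). By the trend Dgat1 was the 1 risen gene of 16 for fatty acid uptake and storage, and 0 of 21 fatty acid oxidation genes passed (median 0.00937). At week 16 against week 0, 2 of the 16 were higher, where 1.01% of all genes were. Dgat2 was 1.57 higher (edgeR adjusted p = 0.0471), a call lost without 5 of the 6 libraries compared (adjusted p up to 0.33). Its trend was 1.28 (adjusted p = 0.0519).

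Of 18 circadian clock genes, 4 rose and 0 fell (median 0.516), against 1.97% of all genes that rose, and 0 were called without week 0 replicate 1, week 8 replicate 2 or HFD week 16 replicate 1. On NCD 1 rose, the median was 0.482 and 16 had a positive slope, against 15 on HFD. Nfil3, a repressor of the clock that also acts in lymphocyte development, was at 11.9, 10.3 and 16.2 CPM at week 0 and 33.3, 26.7 and 34.6 CPM at week 16 (trend 1.4, edgeR adjusted p = 0.025). Cry1 was at 19.7 CPM in week 0 replicate 1 but at 59.5 and 59 CPM in the other two, and at 74.6, 97.7 and 75.5 CPM at week 16 (trend 0.824, edgeR adjusted p = 0.0466). Bhlhe40 (1.32, adjusted p = 0.0457) and Arntl (0.588, adjusted p = 0.0388), the latter named after its values were seen, completed the group. The labels give no time of day of collection, and its part in these values was not tested.

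Of 17 glucocorticoid-induced genes 3 rose, where 1.97% of all genes did: Dusp1, a MAP kinase phosphatase (0.965 ± 0.19, edgeR adjusted p = 0.0064), Ddit4, an inhibitor of mTOR (1.32 ± 0.31, adjusted p = 0.0164), and Cxcr4, named after its values were seen (1.75, adjusted p = 0.0339). Dusp1 was at 87.1, 74.3 and 68.1 CPM at week 0 and 191, 94 and 122 CPM at week 16. Of 17 NF-kB genes 3 rose, against the same 1.97%: Tnfaip3, the adhesion molecule Icam1 (140, 143 and 140 CPM at week 0 and 288, 237 and 183 at week 16, trend 0.924 ± 0.22, edgeR adjusted p = 0.025) and Bcl3, named after its values were seen (0.899, adjusted p = 0.0369). Without HFD week 16 replicate 1 the adjusted p of the trend was 0.13 for Icam1 and 0.0566 for Dusp1.

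Among genes that define Treg identity, Foxp3 did not pass the test. Of 16 core genes, 2 rose, against 1.97% of all genes: Nrp1, a semaphorin receptor (536, 489 and 467 CPM at week 0 and 654, 1020 and 679 at week 16, trend 0.626 ± 0.14, edgeR adjusted p = 0.016), and Nt5e, the CD73 enzyme that makes adenosine (0.788 ± 0.21, adjusted p = 0.0432). The Nrp1 call was lost without HFD week 16 replicate 2 (adjusted p = 0.0926), week 0 replicate 2 or week 0 replicate 3, and the Nt5e call without 11 of the 15 libraries (adjusted p up to 0.127, without week 0 replicate 1). The Foxp3 trend was 0.0706 ± 0.074 (edgeR adjusted p = 0.758), that of Ctla4 0.084 (adjusted p = 0.849), of Ikzf2 0.237 (adjusted p = 0.621) and of Il2ra, the interleukin-2 receptor alpha chain, -0.564 (adjusted p = 0.0599). Among 20 genes of the T cell receptor complex 0 passed (median -0.00591), as did 0 of 20 S100, annexin and cytoskeleton genes (median 0.315). The guanylate-binding and MHC class I list had a positive slope in 25 of 25 genes (median 0.309), and Gbp3 alone rose (0.554, edgeR adjusted p = 0.0494), a call lost without 13 of the 15 libraries (adjusted p up to 0.242, without HFD week 16 replicate 1).

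Among falling genes outside these lists, Nsg2 went from 141, 149 and 142 CPM at week 0 to 39.7, 67.3 and 88.2 CPM at week 16 without overlap (trend -0.917 ± 0.21, edgeR adjusted p = 0.0179). Slc35g1 went from 28.4, 33.5 and 25.3 to 9.06, 13.8 and 17 CPM (trend -1.22 ± 0.27, adjusted p = 0.0118), and Acad11, an acyl-CoA dehydrogenase, from 38.5, 35.9 and 35.3 to 16.5, 22.5 and 16.4 CPM (-1.01 ± 0.23, adjusted p = 0.0156). Mtss1, which bends membranes at actin-rich edges, had a trend of -1.09 (edgeR adjusted p = 0.0294) and the cation channel gene Trpm1 -1.15 (adjusted p = 0.0357). Without HFD week 16 replicate 1 the adjusted p was 0.101 for Nsg2, 0.0757 for Slc35g1, 0.08 for Acad11 and 0.164 for Mtss1. The Trpm1 call was lost without 8 of the 15 libraries (adjusted p up to 0.134, without week 0 replicate 1).

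Over the same 16 weeks on NCD, from the same week 0 libraries, 290 genes had a trend (1.97%), of which 249 rose (1.7%) and 41 fell (0.279%), and 173 differed among the time points (1.18%). The 2 courses share week 0, and their trends are given side by side: Pdcd1 had 1.67 on HFD and 1.60 on NCD (edgeR adjusted p = 0.0145), Socs1 1.21 and 1.16, Tspoap1 2.54 and 2.45 and Lef1 -0.685 and -0.55 (adjusted p = 0.0158). Itgb7 had 1.67 on HFD and 2.06 on NCD (edgeR adjusted p = 0.0222 and 0.00689). For Batf the NCD trend was 0.414 (edgeR adjusted p = 0.298), and for Atp6v0d2 0.883 (adjusted p = 0.168). In the test of the difference between the HFD and NCD slopes, edgeR called 0 of 14686 genes, and DESeq2 called 5. With edgeR 751 genes were at an unadjusted p under 0.05, where 734.3 would be expected if no slope differed. The lowest edgeR adjusted p was that of Jak3, whose slope was 0.564 ± 0.10 higher on HFD over 4 steps (adjusted p = 0.0951). The 5 genes called by DESeq2 were Jak3, the glucose transporter gene Slc2a3, Nfkbia, Cul2 and Rmc1, of which Slc2a3, Cul2 and Rmc1 were named after their values were seen. The Jak3 difference passed with edgeR without NCD week 2 replicate 1 (adjusted p = 0.0183) and without either NCD week 4 library (0.0284 and 0.0287).

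The slope on HFD differed between spleen and VAT Tregs for 891 of 15601 genes (5.71%), higher in spleen for 503 (3.22%) and lower for 388 (2.49%); without VAT HFD week 16 replicate 3 the count was 507 and without spleen HFD week 16 replicate 1 573. Jak3 was at means of 382 and 443 CPM at weeks 0 and 16 in VAT, and its slope was 0.444 ± 0.14 higher in spleen (edgeR adjusted p = 0.0498).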

How the data were processed

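RNA-seq counts per gene were used as the authors deposited them. Per the submitters' processing notes, reads were aligned with STAR 2.7.3a to mm10 and counted with featureCounts, the annotation release, the use of strand and the treatment of reads with several matches being not given in the sources used here. Per the labels' protocols, oligo(dT)-primed cDNA was amplified by PCR without stated molecular identifiers.

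All 26 spleen libraries were fitted together with edgeR 4.0.16 (R 4.3.3): TMM scaling, filterByExpr by group (minimum count 10, total 15), robust quasi-likelihood test, Benjamini-Hochberg adjustment over 14686 genes, threshold 0.05. The trend took equal steps between time points. The comparison of tissues used 26 spleen and 25 VAT libraries. Alternatives were DESeq2 1.42.0, other scaling and filters, time in weeks, a replicate block, and leaving out libraries or time points; leaving out week 2 was added after seeing the data. In simulated counts for 14183 genes the trend test found 71 of 100 genes changed 2-fold and 99 of 100 changed 4-fold, with 4 false calls. The joint test for any difference found 52 of 100 changed 2-fold and 96 of 100 changed 4-fold, with 2 false calls. These numbers do not show how recovery depends on expression level or on single outlying libraries.

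Named genes were those with the smallest p among called genes, and up to 3 per gene list. The called genes had to change by 1 or more (log2), average 3 or more in log2 CPM and have groups without overlap. Lack of overlap between those groups was thus set by the choice and adds no support. A fixed list was also named, among them Foxp3, Il2ra, Ikzf2, Ctla4, Klrg1, Ifit3, Mki67, Ccr7 and Tcf7. Others are said to be named after their values were seen. The members and the gene lists were chosen with earlier results of these data known. Symbols were matched to GENCODE M21 for 52936 of 55011 genes.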

Additional observations from a re-analysis of the deposited data

Results flagged for a closer look

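For 36 of the 69 genes examined singly, the trend over 4 steps on HFD differed between spleen and VAT Tregs in a test of the difference itself (edgeR, adjusted p under 0.05 over 15601 genes). Many of these genes were picked partly for their slope in spleen, so their number is not a share to read against all genes. The log2 slope was higher in spleen than in VAT, in units of log2 over 4 steps, by the following amounts. The widest gaps were Tysnd1 2.85, Ier2 2.79, Itgb7 2.5, Nsmf 2.49, Ccdc85b 2.07, Rrs1 1.99, Fam98c 1.98 and Nfil3 1.93. Next came Dnajb11 1.87, Icam1 1.83, Rac1 1.79, Tspoap1 1.76, Slc9a7 1.7, Tnfaip3 1.67 and Ddit4 1.67. Smaller gaps were Itgb1 1.53, Dgat1 1.48, Cry1 1.43, Abhd4 1.39, Smim10l1 1.32, Cyp51 1.24, Itgav 1.03 and Ncmap 0.994. The least were Hmgcs1 0.947, Tpi1 0.886, Tnfrsf1b 0.837, Arntl 0.834, Fdft1 0.8, Icos 0.681 and Jak3 0.444. The slope was lower in spleen for Nsg2 -2.76, Ifit1 -2.46, Slc35g1 -1.91, Lef1 -0.989, mt-Nd2 -0.862 and Rps3 -0.433. The slope in spleen itself was below 0 for Cyp51, Fdft1 and Hmgcs1, 3 genes of the sterol pathway whose difference from VAT was above 0.

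For none of the 69 genes did the HFD and NCD slopes in spleen differ with edgeR (Jak3, the nearest, at an adjusted p of 0.0951). With 3 libraries per time point no test for a single outlying library was run; HFD week 2 replicate 3 was the farthest from the others on the first principal component (-89.1, the others -17.9 to 42.6).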

How the results depend on the processing

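Counts of called genes moved with the tool, the filter and the samples, and no edgeR comparison of spleen HFD weeks with week 0 kept its count within 1.5 times under every alternative. DESeq2 called 558 genes for any difference, 678 for the trend (471 higher, 207 lower), 16, 332, 449 and 461 at weeks 2, 4, 8 and 16 against week 0, 111 for week 4 against week 2, 1 for week 8 against week 4, 416 and 446 for any difference and trend on NCD, and 5 for the HFD minus NCD slope. Without a filter on low counts, over 38754 genes, the counts in the same order were 734, 683 (500 higher, 183 lower), 48, 313, 444, 505, 121, 7, 584, 478 and 11, with 2 for week 16 against week 8. Fitting only the groups compared gave 110 for any difference and 0 at week 2. With time in weeks the trend count was 222. Without week 0 the counts were 7 for the trend and 16 for any difference, and without week 4 any difference gave 107; without week 2, added after seeing the data, they were 408 and 283. The causes were not tested.

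Leaving out one library gave 79 to 332 genes for any difference, 106 to 566 for the trend, 0 to 7, 63 to 226, 6 to 425 and 7 to 207 at weeks 2, 4, 8 and 16 against week 0, 0 to 67 for week 4 against week 2, 0 to 1 for both later steps, 88 to 242 and 132 to 315 for any difference and trend on NCD, 0 to 1 for the HFD minus NCD slope and 507 to 966 for the spleen minus VAT slope. 

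Among the 15 spleen libraries of the HFD course, same-numbered libraries of different weeks did not deviate together (mean r = -0.0165 over 30 pairs, 0 above 0.1, and 1 of 15 libraries nearest to its own number). Whether spleen and VAT libraries of the same number and week belong together was not tested, and the comparison of tissues was fitted without pairing. With the replicate number as a block the counts were 180 for any difference, 368 for the trend, 0 at week 2, 194 at week 4, 145 at week 8, 163 at week 16 and 37 for week 4 against week 2.

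Trends of 3 genes, none of them called, changed direction: Arhgef1 was -0.148 with time in weeks and -0.361 without week 0, and without week 0 Fdft1 was 0.567 and Lsm4 -0.149. Jak3, Tspoap1, Atp6v0d2 and Abhd4 kept their trend call in all 25 alternatives. With 3 libraries per time point, a miss of the threshold does not show that a gene stayed level.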
